A study of Mus musculus with 14 samples.

Results

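The Ikaros family consists of 5 genes, Ikzf1 to Ikzf5, and their members here were the peaks of 9 deposited ChIP-seq peak lists that overlapped a gene's interval in GRCm38 extended by 10 kb on each side. Of 196179 peaks in the 9 lists, 163 lay in these 5 windows, and the 5 genes were set beside 21887 protein-coding genes treated in the same way. The genes encode zinc-finger transcription factors named Ikaros (Ikzf1), Helios (Ikzf2), Aiolos (Ikzf3), Eos (Ikzf4) and Pegasus (Ikzf5). They bind DNA through N-terminal zinc fingers, pair with each other through C-terminal ones, and are known to work with chromatin remodelling and corepressor complexes. Ikaros is required for the B lineage from its earliest steps, Aiolos rises as B-cell precursors mature, Helios and Eos are best known from T cells, and Pegasus is broadly expressed and the most divergent.

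The study asked how the C-terminal domain of EBF1, a transcription factor of early B cells, bears on where Brg1, an ATPase of BAF chromatin remodelling complexes, sits on chromatin. Fetal liver Brg1 was profiled in c-kit+ lymphocyte progenitors of C57BL/6 EBF1 -/- embryos of day 16 to 18, transduced with pMys IRES-GFP vectors and grown over OP9 stromal cells for 14 to 20 days with IL7, SCF and Flt3. The vectors carried EBF1 dC, which lacks the C-terminal domain, EBF1 dPLD, which lacks residues 480 to 520, EBF1 F-GATA3, in which the TA1 domain of GATA3 replaces the C-terminal domain, EBF1 wt, or no EBF1 (empty). By their labels, the cells with dC or dPLD were partly blocked short of the pro-B stage, those with F-GATA3 or wt had reached it, and those with the empty vector were blocked short of it, so EBF1 version and stage cannot be told apart. Brg1 and EBF1 were also profiled in A-MuLV cells, which are pro-B cells of C57BL/6 EBF1 fl/fl origin that the Abelson murine leukaemia virus had transformed and whose own EBF1 was replaced by pMys-borne dC or wt. All fetal liver groups lack the endogenous EBF1 gene product, and the level of the introduced EBF1 was not measured here. Each group had 1 library, so nothing was tested across groups, and differences have no replicate check.

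The lists held 30301 (dC), 27550 (dPLD), 25072 (F-GATA3), 29354 (wt) and 17687 (empty) fetal liver Brg1 peaks, 24420 (dC) and 24493 (wt) A-MuLV Brg1 peaks, and 11147 (dC) and 6155 (wt) EBF1 peaks. A peak lay within 10 kb of 63.3% (dC), 61.7% (dPLD), 60% (F-GATA3), 62.9% (wt) and 45.2% (empty) of protein-coding genes in the fetal liver, of 52.1% (dC) and 52.2% (wt) for A-MuLV Brg1, and of 32.9% (dC) and 19.9% (wt) for EBF1. Read depth is unknown. The A-MuLV Brg1 lists reach much weaker peaks than the others, with −log10 q values down to 1.33 (dC) and 1.37 (wt) against about 10 elsewhere. As a check of the labelled cells, 5 of 5 genes of pro-B cells (Cd79a, Cd79b, Pax5, Vpreb1, Igll1) had a Brg1 peak within 10 kb in every list from cells with EBF1, and 3 of 5 in the empty-vector list. Of 5 genes of stromal cells (Col1a1, Col1a2, Col3a1, Pdgfrb, Pdgfra), 1 had a Brg1 peak in the fetal liver dC, dPLD, wt and empty lists, and none had one in the F-GATA3 or A-MuLV lists.

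The promoters of Ikzf1 and Ikzf5 are shown because Brg1 peaks stood on them in both kinds of cell and a RefSeq promoter sequence matched these genes. RefSeq sequences (GRCm38.p6, 250 bases before to 50 after the start of transcription) matched 2 of the 5 genes, with 2 starts for Ikzf1 and 1 for Ikzf5. The capital that stands alone is the first transcribed base, and the run of 8 capitals is a match to CCCNNGGG.
Ikzf1, first start, chr11:11685675-11685974, plus strand: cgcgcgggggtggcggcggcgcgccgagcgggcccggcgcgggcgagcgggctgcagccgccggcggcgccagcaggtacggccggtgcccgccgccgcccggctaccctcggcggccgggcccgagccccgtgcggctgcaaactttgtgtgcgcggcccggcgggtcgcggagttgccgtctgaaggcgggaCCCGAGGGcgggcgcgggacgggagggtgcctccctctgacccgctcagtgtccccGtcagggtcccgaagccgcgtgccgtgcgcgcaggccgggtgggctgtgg
Ikzf1, second start, chr11:11689927-11690226, plus strand: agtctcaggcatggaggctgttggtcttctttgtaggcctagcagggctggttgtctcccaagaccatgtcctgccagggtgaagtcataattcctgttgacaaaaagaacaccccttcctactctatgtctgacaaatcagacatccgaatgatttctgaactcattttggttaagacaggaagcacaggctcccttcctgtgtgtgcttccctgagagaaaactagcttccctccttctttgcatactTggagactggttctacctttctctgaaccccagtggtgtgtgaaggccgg
Ikzf5, chr7:131410429-131410728, minus strand: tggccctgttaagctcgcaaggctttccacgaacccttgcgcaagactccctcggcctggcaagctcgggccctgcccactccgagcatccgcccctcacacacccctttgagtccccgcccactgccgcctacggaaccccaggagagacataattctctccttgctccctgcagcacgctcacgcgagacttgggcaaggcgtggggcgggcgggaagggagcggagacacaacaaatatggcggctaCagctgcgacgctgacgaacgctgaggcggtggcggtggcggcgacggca
The motifs searched on both strands were CCCNNGGG, the core of the EBF1 palindrome, the longer palindrome, which is that core with a T before it and an A after it, and TGGGAA, a core sequence of Ikaros. Only the first Ikzf1 promoter held a match, to CCCNNGGG, starting at base 195. No EBF1 peak overlapped that promoter, and the nearest EBF1 summits lay 3305 (dC) and 3279 (wt) bp from its first transcribed base. Among 32817 RefSeq promoters of the same length, 0.905% held the longer palindrome, 13.7% CCCNNGGG and 25.6% TGGGAA. The first Ikzf1 promoter is 81.3% G and C, the second 49.0%, and that of Ikzf5 65.7%.

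Across the family, Ikzf1 and Ikzf3 held most of the peaks. The Ikzf1 window held 8 (dC), 7 (dPLD), 8 (F-GATA3), 11 (wt) and 7 (empty) fetal liver Brg1 peaks. In A-MuLV cells it held 15 with dC and 10 with wt. The Ikzf3 window held 7 (dC), 8 (dPLD), 7 (F-GATA3), 9 (wt) and 0 (empty), and in A-MuLV cells 3 with dC and 16 with wt. Ikzf1 was thus occupied in every Brg1 list, whereas Ikzf3 lacked any called peak without EBF1 and had fewer in A-MuLV dC than wt cells. Neither low count is rare. Among 3076 genes at least as long as Ikzf3, 43.8% had 0 empty-vector peaks and 81.9% had at most 3 A-MuLV dC peaks, with a median of 1. Ikzf4 held 4 (dC), 4 (dPLD), 3 (F-GATA3), 4 (wt) and 3 (empty) fetal liver peaks, and 2 (dC) and 3 (wt) in A-MuLV cells. Ikzf5 held 1 in each fetal liver list, and 1 (dC) and 3 (wt) in A-MuLV cells. Ikzf2 held 1 with dPLD, 1 with wt and 0 in every other list. For scale, 11 or more wt peaks were found at 0.466% of protein-coding genes, 16 or more A-MuLV wt peaks at 0.187%, and 15 or more A-MuLV dC peaks at 0.26%. Among genes at least as long as Ikzf1 (first and last count) or Ikzf3 (second), these shares were 3.43%, 1.07% and 1.62%. Windows differ in length, from 41.9 kb (Ikzf5) to 176.1 kb (Ikzf2), and no count was scaled to length.

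**Figure D1:**
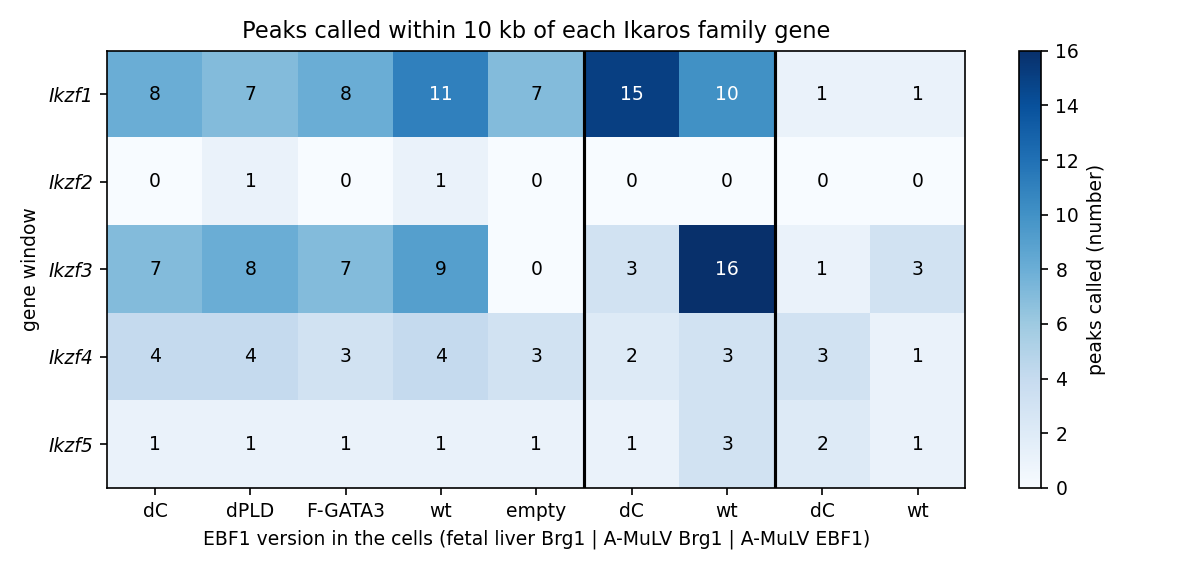
Number of peaks called in the window of each gene (rows) in each of the 9 lists (columns, grouped by cell and antibody, 1 library each). Ikzf3 has 0 peaks in the empty-vector list and 3 against 16 in A-MuLV dC and wt cells, while Ikzf1 has 15 against 10.

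Wild-type EBF1 in the progenitors was accompanied by Brg1 peaks absent with the empty vector at Ikzf3, Ikzf1, Ikzf4 and Ikzf2. Of 26 wt peaks in the family, 19 overlapped no empty-vector peak by even 1 bp (73.1%, exact Clopper-Pearson 95% interval 52.2-88.4%, counting error only), against 63.9% of all wt peaks. Such gained peaks lay at 4 of 5 family genes, against 48.9% of protein-coding genes. They numbered 9 of 9 wt peaks at Ikzf3, 7 of 11 at Ikzf1, 2 of 4 at Ikzf4, 1 of 1 at Ikzf2 and 0 of 1 at Ikzf5. An excess of wt over empty-vector peaks as large as the 9 at Ikzf3 was found at 0.219% of protein-coding genes. In the opposite direction, 3 of 11 empty-vector peaks overlapped no wt peak, against 38.7% of that list, 2 of them inside Ikzf1 (chr11:11711825-11712215, fold 6.28, and chr11:11751074-11751783, fold 5.58) and 1 inside Ikzf4 (chr10:128636795-128637600, fold 6.25). Fold here is the authors' enrichment of a peak over its local background and serves to describe peaks within a list. With every fetal liver list held to its 17687 strongest peaks, 10 family peaks were gained. The wt peaks then numbered 6 at Ikzf1, 0 at Ikzf2, 6 at Ikzf3, 4 at Ikzf4 and 1 at Ikzf5. The genome-wide share gained at this setting is not given here, and the 63.9% above belongs to the full lists. Ikzf1 had 6 wt and 7 empty-vector peaks, so that its count no longer stood higher with wt.

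The altered EBF1 versions kept most of the gained peaks. Of the 19, dPLD had an overlapping peak at 16 (84.2%, 60.4-96.6%), dC at 13 (68.4%, 43.5-87.4%) and F-GATA3 at 12 (63.2%, 38.4-83.7%). The shares over all gained peaks of the genome were 77.2% (dPLD), 76.3% (dC) and 70% (F-GATA3), all inside those intervals. All 3 versions kept the same 12 peaks, 6 at Ikzf3, 4 at Ikzf1 and 2 at Ikzf4, and the genome-wide share kept by all 3 was 57.3%. The strongest gained peak of Ikzf3 (fold 20.0 in the wt list), of Ikzf4 (13.2) and of Ikzf1 (7.0) were among the 12. The single Ikzf2 peak was kept with dPLD alone.

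At Ikzf3 (chr11:98464610-98546031), the gene of Aiolos, the 4 EBF1 versions shared 6 of 12 occupied stretches, a stretch being a run of overlapping peaks from any of the lists. Stretches were formed in the family windows only, so no stretch count has a genome-wide share beside it. The strongest stretch with dPLD, F-GATA3 and wt lay below the gene, toward Mien1 and Grb7 (chr11:98456733-98461648), with folds of 12.35 (dC), 17.9 (dPLD), 14.0 (F-GATA3) and 20.0 (wt). With dC it ranked below the strongest stretch inside the gene and below that at Zpbp2 (14.0). Inside the gene the strongest was chr11:98490545-98495251, with folds of 15.1 (dC), 15.2 (dPLD), 13.3 (F-GATA3) and 19.5 (wt). In the wt list the first stood at percentile 98.45 of folds and the second at 98.2. The weak wt peaks at chr11:98479499-98479992 (fold 5.28) and chr11:98484164-98485138 (4.65) were also called with dPLD and with neither dC nor F-GATA3. The one at chr11:98542485-98543489 (5.73) was called with none of the 3. A peak at chr11:98532798-98534280 (6.81) was called in the fetal liver with dC alone. The gene is read from the minus strand, and at its upper end, where transcription starts, folds were 5.73 (dC), 8.56 (dPLD), 8.51 (F-GATA3) and 10.2 (wt).

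In the family as a whole, 10 of 21 A-MuLV dC Brg1 peaks had no wt counterpart (47.6%, 25.7-70.2%), against 34.4% of the whole list, and 20 of 32 wt peaks had no dC counterpart (62.5%, 43.7-78.9%), against 37.6%. At a −log10 q of 10 or more these counts were 4 and 3, so that their order turned. A-MuLV cells with dC lacked the Brg1 peaks inside Ikzf3 that wt cells had. Of the 16 wt peaks in the window 13 had no dC counterpart, against 37.6% of all A-MuLV wt peaks, and none of the 3 dC peaks lacked a wt counterpart. Peaks covered 1265 bp with dC and 7505 bp with wt. The dC cells kept only the stretches on the 2 flanks: below the gene, with folds of 8.98 (dC) and 27.2 (wt) for the highest peak, and above it at the neighbouring gene Zpbp2, with 5.47 (dC) and 7.98 (wt). Of the 10 stretches with wt Brg1, 8 were without dC Brg1, a count with no genome-wide share beside it. Among those 8 were the stretch at 25.9 kb from the lower end, strong in the fetal liver (highest A-MuLV wt fold 6.61), and the start of the gene (6.44). In fetal liver cells dC had peaks at both. A deficit of 13 or more dC peaks was found at 4 protein-coding genes (0.0183%), Ikzf3, Thra, Gramd4 and Galnt14, which are named because of these values. Most of the wt peaks are weak: at a −log10 q of at least 10 the window held 2 dC and 4 wt peaks, and at 20 or more 0 and 2.

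**Figure D2:**
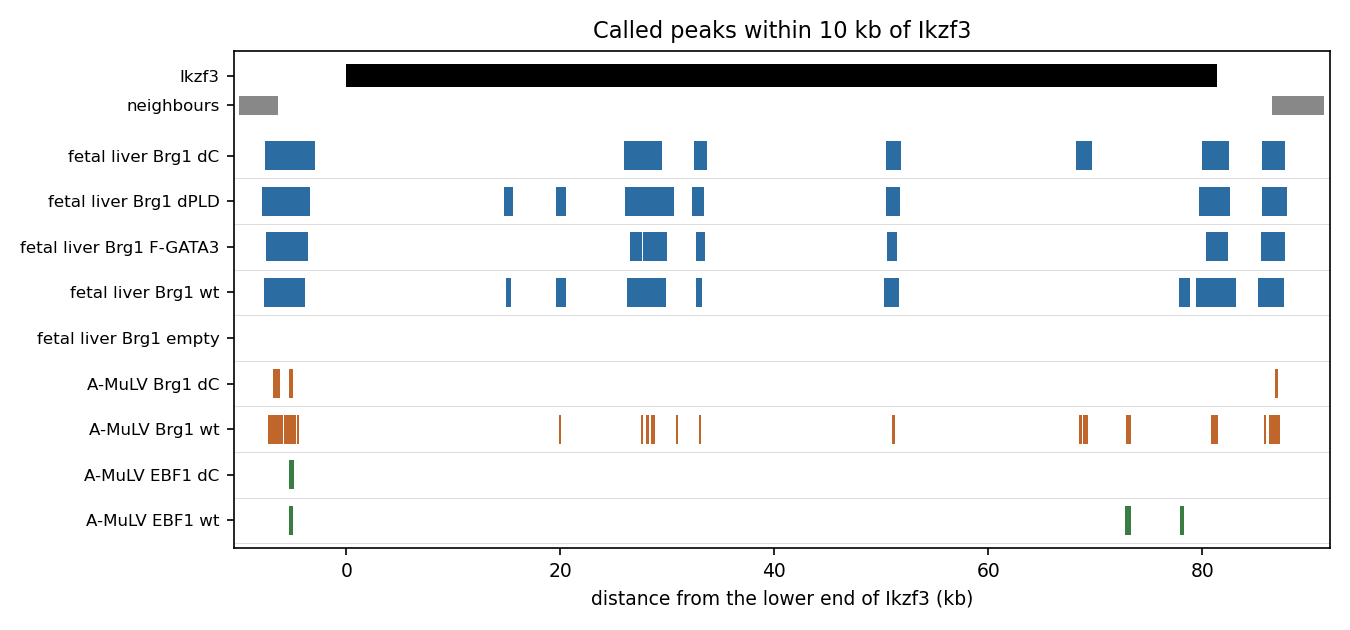
Peaks called within 10 kb of Ikzf3, with distance from the gene's lower end in kb on the x axis and 1 row per list. Coloured bars are peaks to scale in width (blue fetal liver Brg1, orange A-MuLV Brg1, green A-MuLV EBF1), the black bar is the gene and grey bars are neighbouring protein-coding genes. The empty-vector row holds no peak, and the A-MuLV dC row holds 3, all outside the gene.

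Ikzf1 (chr11:11684962-11772930), the gene of Ikaros, showed more Brg1 peaks in A-MuLV cells with dC than with wt. There were 15 dC and 10 wt peaks, covering 7.19 kb with dC and 4.04 kb with wt. Of the 15 dC peaks 9 had no wt counterpart, against 34.4% of all A-MuLV dC peaks, and an excess of 5 or more dC peaks was found at 0.548% of protein-coding genes. At a −log10 q of at least 10 the counts were 6 (dC) and 2 (wt). Of 11 stretches, dC cells had Brg1 at 7 and wt cells at 4, with 3 in common, again with no genome-wide share for stretches. The strongest stretch with dC alone lay just beyond the end of the gene (chr11:11775439-11778446), where the highest A-MuLV dC fold was 10.1. In the fetal liver it had peaks with dC (6.48), dPLD (6.57), F-GATA3 (5.28) and wt (7.0) and none with the empty vector. A further stretch with A-MuLV dC alone, at chr11:11693426-11696622 (6.56), was likewise called with all 4 fetal liver EBF1 versions and not with the empty vector. The remaining 2, at 12.1 and 73.9 kb from the lower end, had A-MuLV dC folds of 3.45 and 4.14, the second with a fetal liver dC peak as well (4.66). The only stretch with wt and not dC, at 57.7 kb (4.83), was called in the fetal liver with wt alone.

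In the fetal liver the direction at Ikzf1 was the other way, with 8 dC and 11 wt peaks. The covered length did not follow the counts, with 19225 bp for dC and 17470 bp for wt, and with lists of equal length the counts were 5 (dC) and 6 (wt). The stretch near the end of the gene (chr11:11762426-11768581) held 2 dC, 2 dPLD, 3 F-GATA3, 3 wt and 2 empty-vector peaks, with highest folds of 12.1, 10.0, 9.76, 10.3 and 8.23. In A-MuLV cells the same stretch held 5 dC peaks, up to fold 10.7, and 2 wt peaks, up to 5.29.

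Both Ikzf1 starts shown above carried Brg1. On the first, the highest overlapping peak had a fold of 12.0 (dC), 10.2 (dPLD), 10.6 (F-GATA3), 13.7 (wt) and 4.88 (empty) in the fetal liver, and 7.61 (dC) and 8.31 (wt) in A-MuLV cells. On the second, folds were 12.9 (dC), 13.1 (dPLD), 11.4 (F-GATA3) and 11.8 (wt), with no peak in the empty-vector list, and 7.24 (dC) and 3.84 (wt) in A-MuLV cells. The fetal liver summits there lay 17 (dC), 55 (dPLD), 40 (F-GATA3) and 76 (wt) bp from the first transcribed base. Across promoter windows of protein-coding genes, a peak was called at 47.1% (dC), 45.7% (dPLD), 43.2% (F-GATA3), 45.7% (wt) and 22.7% (empty) in the fetal liver, and at 34% (dC) and 35.6% (wt) in A-MuLV cells. The empty-vector list therefore covered the first Ikzf1 start and not the second. An empty-vector peak did stand beyond the second window (chr11:11691027-11692066, fold 4.98), inside the long wt peak, which for that reason was not counted as gained.

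**Figure D3:**
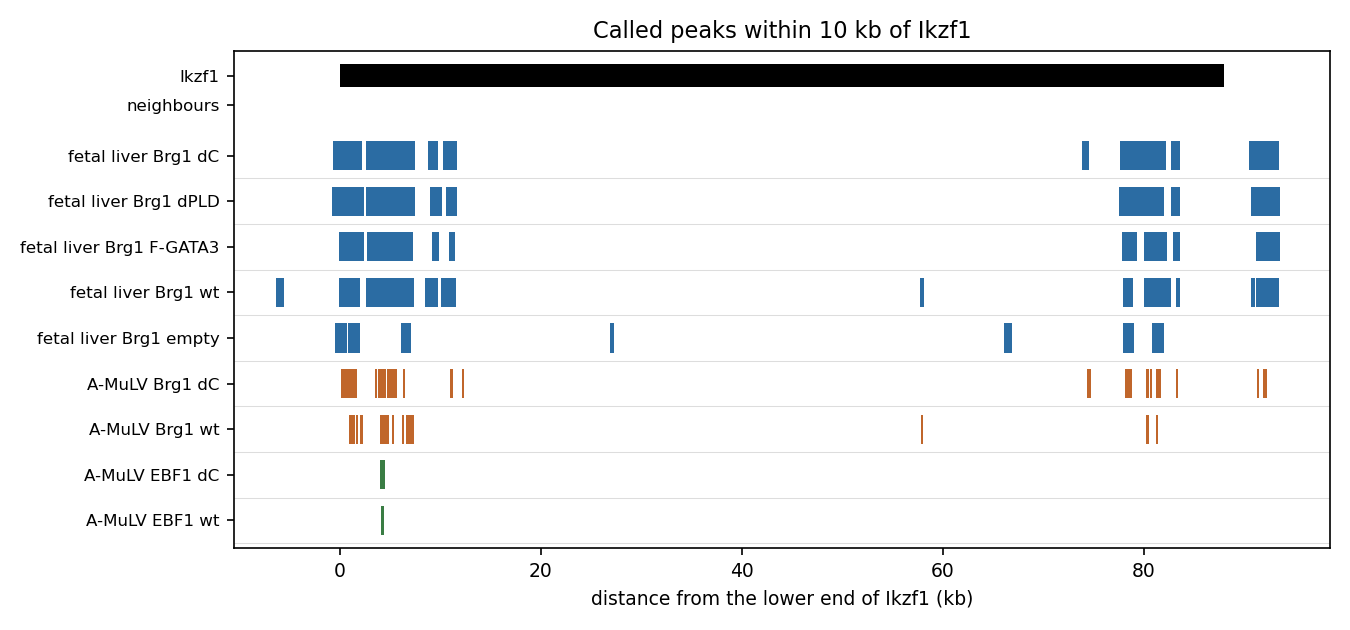
Peaks called within 10 kb of Ikzf1, drawn as distance from the gene's lower end in kb, 1 row per list, with peaks to scale in width and the gene in black. All Brg1 rows have peaks near the start. Beyond the upper end of the gene, the A-MuLV dC row has peaks and the wt row has none.

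EBF1 itself occupied 9 sites in the family windows, and dC and wt differed at 5 of them. Merging the 2 lists gave 4 sites with both forms, 3 with dC alone and 2 with wt alone. Of 7 EBF1 dC peaks 3 had no wt counterpart, against 57.9% of that list, and of 6 EBF1 wt peaks 2 had no dC counterpart, against 23.3%. A dC-alone peak lay near 23.2% of protein-coding genes and here near 2 of 5, Ikzf4 and Ikzf5. A wt-alone peak lay near 4.85%, and here near Ikzf3. The EBF1 dC list is the longer one, and at equal length 1 family peak was left with dC alone. Ikzf2 had no EBF1 peak with either form.

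Each of Ikzf1, Ikzf3, Ikzf4 and Ikzf5 had exactly 1 site with both EBF1 forms. At Ikzf1 it lay upstream of the second start (chr11:11688934-11689483), with folds of 13.4 (dC) and 8.36 (wt) and summits at -947 (dC) and -973 (wt) bp from the first transcribed base. At Ikzf3 it lay in the flank toward Mien1 (chr11:98459214-98459747), with folds of 11.5 (dC) and 9.9 (wt). At Ikzf4 it lay 4.5 kb above the gene, over the upper end of the neighbouring gene Suox (chr10:128673811-128674602), with folds of 24.6 (dC) and 17.2 (wt). At Ikzf5 it lay 6.07 kb above the gene, inside Acadsb (chr7:131416230-131417096), with folds of 14.5 (dC) and 11.2 (wt). Only the Ikzf1 site lay in its gene's own interval, and the other 3 lay at or near neighbouring genes. Of these 4 sites A-MuLV Brg1 was called at 3 with dC, the exception being Ikzf5, and at 4 with wt. The share over all sites with both forms is not given here. Over the family, 3 of 7 EBF1 dC peaks overlapped Brg1 dC (42.9%, 9.9-81.6%) against 46.1% of the whole list, and 5 of 6 EBF1 wt peaks overlapped Brg1 wt (83.3%, 35.9-99.6%) against 72%. With a −log10 q of at least 20 in all lists, these were 0 for dC and 3 for wt.

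The sites with a single EBF1 form differed between Ikzf3 and Ikzf4. Both sites with EBF1 wt alone lay inside Ikzf3, at 73.1 kb (fold 26.4) and 78.2 kb (8.62) from its lower end. The first had A-MuLV wt Brg1 (15.1) and no fetal liver Brg1. The second had fetal liver Brg1 with wt alone (5.73) and no A-MuLV Brg1 of either kind. Of the 3 sites with EBF1 dC alone, 2 lay inside Ikzf4, at 14.3 kb (5.6) and 16.3 kb (8.49), and 1 in the Ikzf5 flank (6.85). None of those 3 overlapped A-MuLV Brg1 of either kind. Over the whole list 46.1% of EBF1 dC peaks overlapped Brg1 dC, and the share among dC-alone peaks is not given here. Both Ikzf4 sites stood under fetal liver Brg1 peaks of dC, dPLD, F-GATA3 and wt, and the one at 14.3 kb also under an empty-vector peak. That was the only one of the 9 sites with empty-vector Brg1, whereas fetal liver dC, dPLD and F-GATA3 Brg1 each covered 5 and wt 6. The matching shares over all EBF1 sites are not given here. The empty-vector list is also the shortest fetal liver list (17687 peaks, against 29354 with wt), so these counts are not read as a trait of the family.

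**Figure D4:**
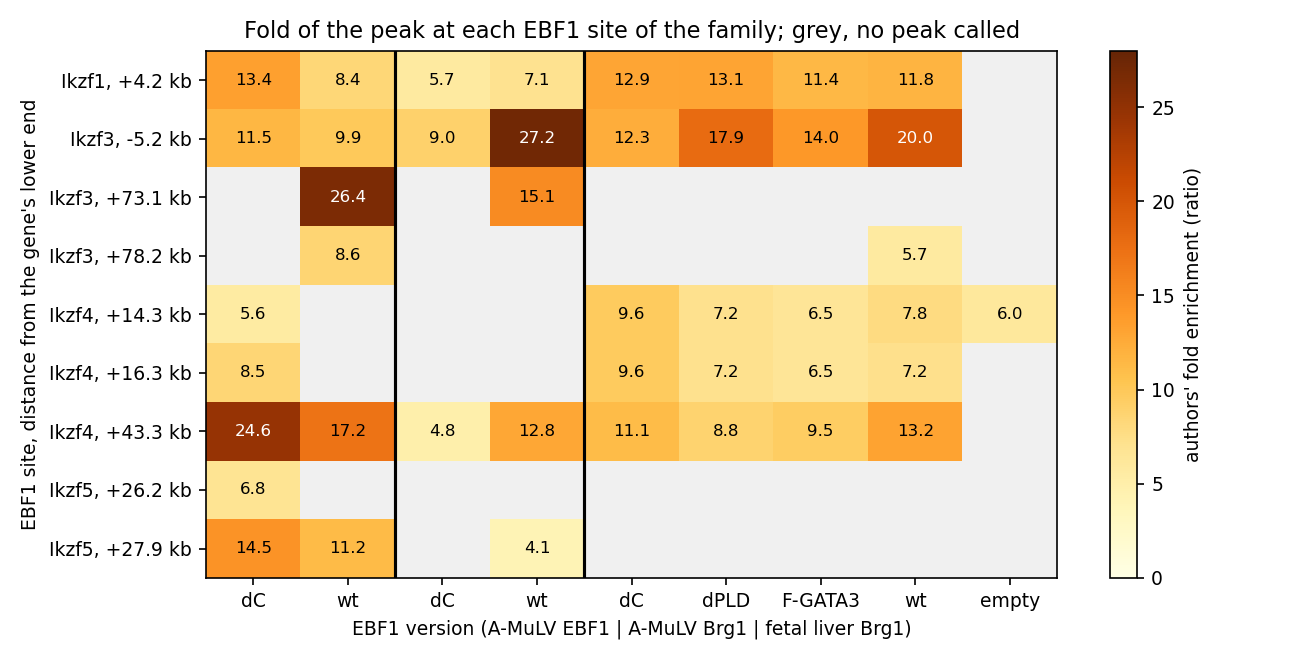
The authors' fold of the highest peak overlapping each of the 9 EBF1 sites (rows, with distance of the EBF1 summit from the gene's lower end in kb), in each list (columns). Grey cells had no peak, as at 8 of 9 sites in the empty-vector column, for which no share over all EBF1 sites is given.

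The distance between summits set the fetal liver dC library apart at the Ikzf3 flank site and the wt library apart at a site inside Ikzf4. From the EBF1 wt summit at the Ikzf3 flank to the summit of the fetal liver Brg1 peak there were 1413 (dC), 3 (dPLD), 3 (F-GATA3) and 2 (wt) bp. The dC peak still covered the site, but its highest point was at position 98458011, which is inside Mien1. A-MuLV Brg1 peaks with both forms had summits close to it, at 98457834 (dC, fold 6.79) and 98458034 (wt, fold 7.21). In A-MuLV cells, where the stretch was divided into smaller peaks, the peak at the EBF1 site had its summit 95 (dC) and 43 (wt) bp from the EBF1 summit. At the Ikzf1 site with both EBF1 forms the fetal liver distances were 956 (dC), 1028 (dPLD), 1013 (F-GATA3) and 1049 (wt) bp, so a long distance was not particular to dC. At the Ikzf4 flank site the fetal liver distances were 34 (dC), 105 (dPLD), 32 (F-GATA3) and 12 (wt) bp. At the Ikzf4 site with EBF1 dC alone at 16.3 kb, measured from the EBF1 dC summit, they were 1238 (dC), 1226 (dPLD), 1351 (F-GATA3) and 23 (wt) bp, the wt list having a separate peak there. The Ikzf3 and Ikzf4 sites were singled out after their values were seen.

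No list had over 4 peaks at Ikzf4 or over 3 at Ikzf5. For scale, 4 or more fetal liver wt peaks were found at 11.2% of protein-coding genes. A count of 3 or more EBF1 dC peaks, as at Ikzf4, was found at 4.94%. At least 1 fetal liver wt peak, as at Ikzf5, was found at 62.9%. In the Ikzf4 window (gene at chr10:128630839-128669671) 2 stretches were called in all 5 fetal liver lists. One overlapped the upper end of the neighbouring gene Rps26 (chr10:128625803-128627628) and one lay inside Ikzf4 (chr10:128644924-128647415). Folds at the one inside the gene were 9.63 (dC), 7.19 (dPLD), 6.53 (F-GATA3), 7.84 (wt) and 6.04 (empty). At the upper end of Ikzf4, where this minus-strand gene starts, peaks were called with dC (chr10:128668636-128669649, 5.97) and dPLD (chr10:128668758-128669697, 5.49) and with no other version. At the flank by Suox the gained Brg1 peak had folds of 11.1 (dC), 8.82 (dPLD), 9.48 (F-GATA3) and 13.2 (wt), and in A-MuLV cells 4.83 (dC) and 12.8 (wt). No A-MuLV Brg1 peak lay inside Ikzf4 itself with either form.

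Ikzf5 (chr7:131388649-131410518) had a single fetal liver stretch, over the promoter shown above, which it shares with Acadsb. Folds were 11.4 (dC), 9.42 (dPLD), 10.3 (F-GATA3), 9.82 (wt) and 5.75 (empty), and in A-MuLV cells 3.81 (dC) and 5.8 (wt). The fetal liver summits lay 7 (dC), 45 (dPLD), 10 (F-GATA3), 124 (wt) and 249 (empty) bp from the first transcribed base. Ikzf2 (chr1:69531207-69687351) had its only stretch at its upper end, where this gene starts, with folds of 6.0 (dPLD) and 6.36 (wt). Both lay in the lower part of their lists, at percentiles 35 and 36.6. Of 1377 protein-coding genes at least as long as Ikzf2, 52.5% had 1 wt peak or none.

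**Figure D5:**
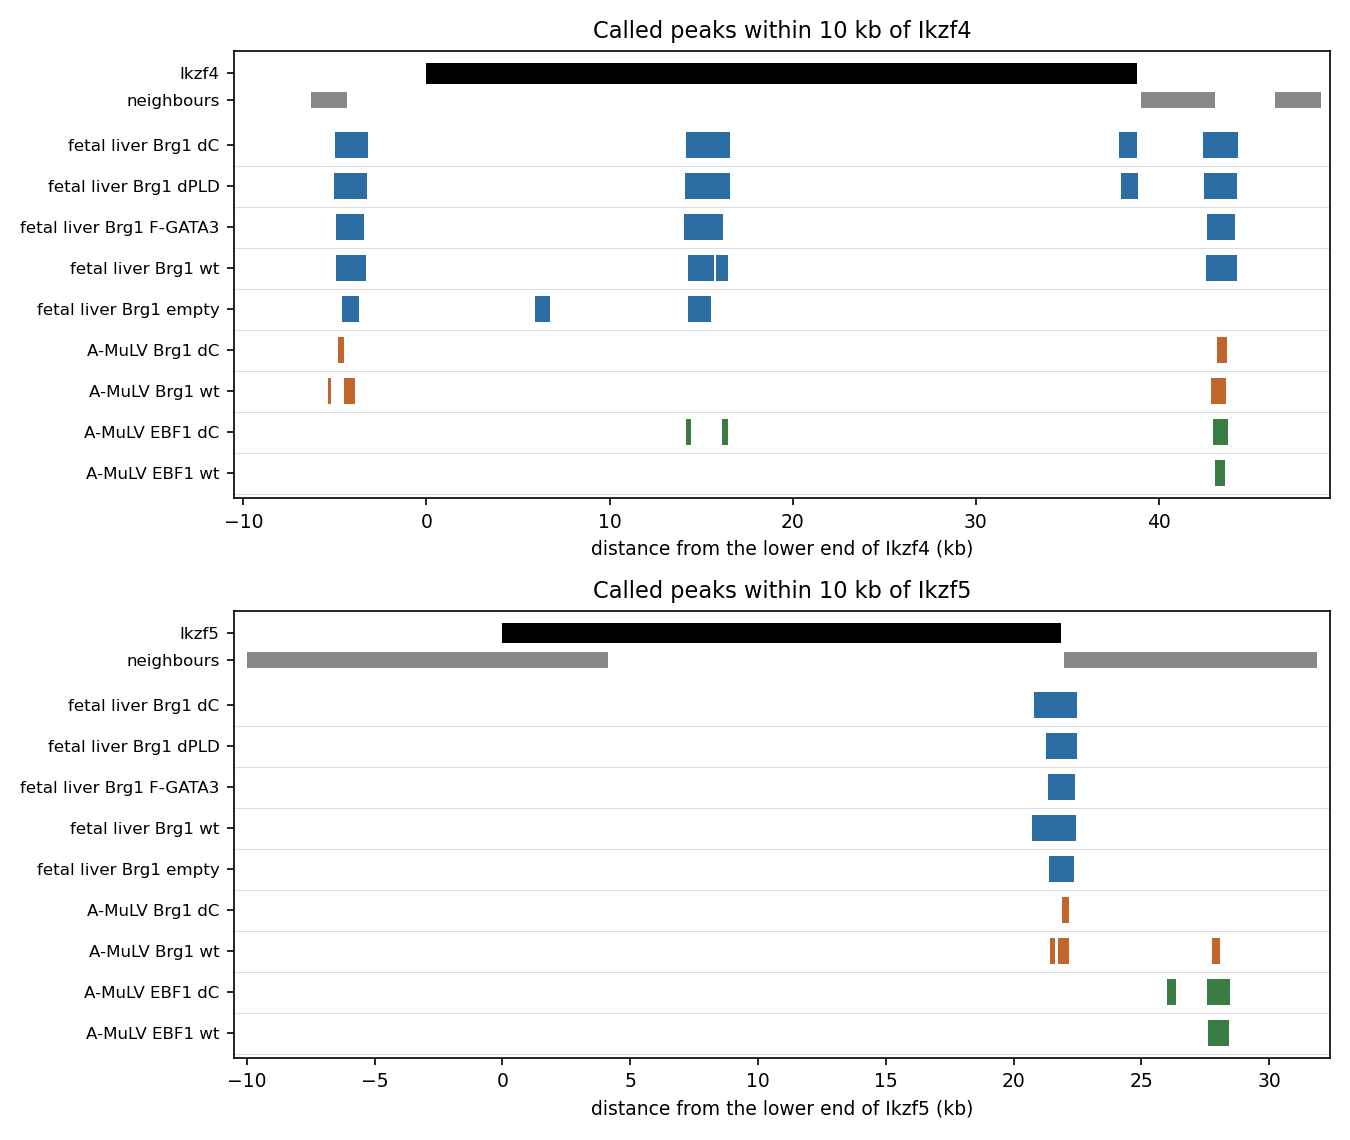
Peaks called within 10 kb of Ikzf4 (top) and Ikzf5 (bottom), as distance from each gene's lower end in kb, 1 row per list, with genes in black and neighbouring protein-coding genes in grey. Ikzf5 has 1 stretch in all fetal liver rows, and the 2 EBF1 peaks inside Ikzf4 are in the dC row alone.

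Fetal liver and A-MuLV Brg1 met at about as many family peaks as elsewhere, with a split between Ikzf1 and Ikzf3 that ran in opposite directions with dC and wt. Of 20 fetal liver dC peaks in the family, 12 overlapped an A-MuLV dC peak (60%, 36.1-80.9%), against 50.4% of the whole list. Of 26 wt peaks 14 overlapped an A-MuLV wt peak (53.8%, 33.4-73.4%), against 49.7%, a count that became 5 among peaks with a −log10 q of 10 or more. With dC the overlap was 7 of 8 at Ikzf1, 2 of 7 at Ikzf3, 2 of 4 at Ikzf4 and 1 of 1 at Ikzf5. With wt it was 4 of 11 at Ikzf1, 7 of 9 at Ikzf3, 2 of 4 at Ikzf4, 1 of 1 at Ikzf5 and 0 of 1 at Ikzf2. The crosslinking differed between the cells, with 2% formaldehyde in fetal liver and 1% in A-MuLV cells, EGS being added in both, and its part in these overlaps was not tested.

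Genes around the family were described from 2 lists. Among 16 genes of corepressor complexes that Ikaros proteins bind (NuRD, Sin3 and CtBP), 12 had a gained fetal liver Brg1 peak, against 48.9% of protein-coding genes. The empty-vector list had a peak at 10 of the 16, against 45.2%, and the wt list at all 16, against 62.9%. The highest gained peaks were at Mta1 (fold 11.4), a NuRD subunit, Ctbp1 (9.23), a corepressor, and Chd4 (8.8), the NuRD ATPase. A gained peak kept by dC lay at 12 of the 16, one kept by dPLD at 10 and one kept by F-GATA3 at 11, against 43.9%, 43.6% and 41.4% of protein-coding genes. In A-MuLV cells 5 of 16 had a Brg1 peak with dC and not wt, and 7 with wt and not dC, among them Sin3a (5.8), Gatad2a (5.67) and Chd3 (5.29), against 24.3% and 25.8% of protein-coding genes. Among 12 genes of the pro-B to pre-B step tied to Ikaros and Aiolos, 12 had a gained peak, against 48.9% of protein-coding genes. An empty-vector peak lay at 10 of the 12, against 45.2%. The highest gained peaks lay at Syk (20.2), a kinase of the pre-B-cell receptor, Blnk (15.3), its adaptor, and Ccnd3 (15.2), a cyclin. A gained peak kept by dC lay at 12 of these genes, one kept by dPLD at 10 and one kept by F-GATA3 at 12, against 43.9%, 43.6% and 41.4%. A-MuLV Brg1 peaks with dC and not wt lay at 9 of these 12, and with wt and not dC also at 9, against 24.3% and 25.8% of protein-coding genes. The highest of the second kind lay at Irf4 (6.77), Igll1 (6.26) and Ccnd3 (5.43). Ikzf1 and Ikzf4 likewise had A-MuLV peaks of both kinds, while Ikzf3 and Ikzf5 had them only with wt. At Ikzf4 the dC peak (chr10:128626030-128626321, fold 4.83) and a wt peak (chr10:128626352-128626919, 6.47) lay side by side in the stretch at Rps26. Counted by stretches, Ikzf4 had 0 with A-MuLV dC Brg1 alone.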

How the data were processed

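The submitters' processing notes name GRCm38 with MACS2 2.1.2, Bowtie2 2.3.3.1, deepTools 3.3.1 and SAMtools 1.9. Peak-calling thresholds and the pairing of inputs with ChIP libraries were not given in the sources used. Of 14 samples, 9 ChIP libraries with a peak list were used, and the 5 inputs were not analysed here. The authors' lists give a fold (a ratio of pileup to local background), −log10 p and −log10 q values, and a deposited score of 10 times the −log10 q.

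Peaks on unplaced scaffolds were dropped. A peak counted as shared when it overlapped another by at least 1 bp. Gene intervals and promoters came from RefSeq tables for GRCm38.p6, and the strand of Ikzf2, Ikzf3 and Ikzf4 is background knowledge. Shares carry exact Clopper-Pearson 95% intervals (scipy 1.17.1), which cover counting error only. Neighbouring peaks of 1 gene are not independent. The overlap code was tested on simulated data. All 5 genes and their highest peaks were described, with the 3 highest genes per list and class. Members and lists were chosen with earlier results of these data known. A further gene of the pro-B check is not reported here. Other settings tried were a minimum −log10 q of 10 or 20, lists of equal length, an overlap of 50% of the shorter peak, and windows of 0 or 50 kb.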

Additional observations from a re-analysis of the deposited data

Results flagged for a closer look

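At Ikzf1 the difference between dC and wt in Brg1 peaks ran in opposite directions in the 2 kinds of cell. In A-MuLV cells dC had 5 more peaks than wt (15 with dC and 10 with wt), and in fetal liver cells 3 fewer (8 with dC and 11 with wt). The covered length was larger with dC in both, at 7192 bp (dC) and 4037 bp (wt) in A-MuLV cells and 19225 bp (dC) and 17470 bp (wt) in fetal liver cells. The fetal liver peaks lay in 6 stretches with dC and 7 with wt. The difference between the cells was not tested, since each group had 1 library.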

How the results depend on the processing

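Of 66 values of family counts under 6 alternatives, 42 stayed within 1.5 times the value reported. At a −log10 q of at least 10, A-MuLV Brg1 peaks with dC and not wt numbered 4 (10 reported) and with wt and not dC 3 (20 reported), EBF1 dC peaks with Brg1 dC 1, and fetal liver wt peaks also in A-MuLV wt 5. At 20 or more these were 2, 3, 0 and 2, EBF1 peaks with dC alone and with wt alone numbered 1 and 1, and EBF1 wt peaks with Brg1 wt 3. At a minimum of 10, the A-MuLV Brg1 lists held 5634 (dC) and 7177 (wt) peaks. With lists of equal length, gained peaks numbered 10, of which dC kept 7, dPLD 9 and F-GATA3 8, so that F-GATA3 stood above dC, and 1 EBF1 peak was with dC alone. Without the 10 kb extension dC kept 8 gained peaks, 1 EBF1 dC peak had Brg1 dC and 2 EBF1 wt peaks had Brg1 wt. With 50 kb, dC kept 21 and F-GATA3 19 gained peaks, 16 A-MuLV Brg1 and 6 EBF1 peaks were with dC and not wt, 5 EBF1 dC peaks had Brg1 dC, and 23 fetal liver wt peaks were also in A-MuLV wt. An overlap of 50% moved none of these counts by over 1.5 times. The wt minus empty difference at Ikzf1 turned to -1 with lists of equal length. With depth unknown, the lack of a called peak sets no limit on binding. No paired analysis was possible because each group had 1 library and the labels give no replicate numbers.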
